A study of Pseudotaxus chienii with 9 samples.

Results

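The yew relative Pseudotaxus chienii has 2 genes among the 26827 of its expression table that are described as the basic helix-loop-helix (bHLH) factors bHLH041 (PchiChr2G064150) and bHLH112-like (PchiChr2G037800). Both were chosen by their FPKM (fragments per length of gene and depth of library) in these same libraries. The choice took them as bHLH genes that were low in CK leaves and rose steadily in every library of leaves given methyl jasmonate (MeJA). Their differences from CK are therefore given as a description, with no test. The other 26 genes with bHLH in their description serve as background.

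PolyA RNA of leaves was sequenced in 9 libraries, 3 in each of 3 groups. The CK group carries no MeJA in its treatment label, and the other groups had MeJA for 1 day or for 2 days. The labels give no strain, plant age or dose, and they say neither whether CK leaves had a mock treatment nor when they were collected. They do not tie libraries to separate plants, so every p-value here speaks of library spread alone, perhaps technical in part. In leaf pieces fewer cells of a type and less RNA per cell cannot be told apart.

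Proteins of the bHLH family bind DNA through a basic region, mostly at E-boxes, and pair with each other through the helix-loop-helix. In the jasmonate pathway of flowering plants, the receptor COI1 marks JAZ (TIFY) repressors for destruction when the hormone is present, which frees the bHLH factor MYC2 to switch on its targets. In cultured cells of Taxus cuspidata, a related yew, JAMYC factors of the same family lower the activity of paclitaxel pathway promoters. In Arabidopsis, bHLH112 acts in tolerance of salt and drought.

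The bHLH041 gene was named from a match to Nicotiana attenuata, and the bHLH112-like gene from a match to Nelumbo nucifera. bHLH041 lies on chromosome 2 (block 1000000001 of the authors' table, 411370272 to 411372825, minus strand) and spans 2554 bases. bHLH112-like lies on the same chromosome in another block (block 1, 89790239 to 89794532, plus strand) and spans 4294 bases. Each number, 041 and 112, occurs in the description of 1 gene in the table. The table assigns bHLH112-like gene ontology terms for DNA binding at core promoters and activation of transcription in the nucleus. No gene in the table overlaps either span.

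bHLH041 was at 1.53, 1.31 and 1.00 FPKM in CK libraries 1, 2 and 3. After 1 day of MeJA it was at 13.1, 16.8 and 9.02 FPKM and after 2 days at 10.2, 10.3 and 9.84 FPKM. All 6 treated libraries lay above all 3 CK libraries, and the day 2 values fell within the range of day 1. The group means were 1.28 ± 0.264 FPKM in CK, 13.0 ± 3.91 at day 1 and 10.1 ± 0.228 at day 2 (SD, n = 3 in each). The fitted log2 fold change from CK was 3.50 (SE 0.32) at day 1 and 3.10 (SE 0.31) at day 2. Against the mean of CK, single treated libraries stood 7.04-fold (day 1 library 3) to 13.1-fold (day 1 library 2) higher.

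bHLH112-like had a slightly higher FPKM than bHLH041 in CK and a lower FPKM in every treated library. It was at 2.05, 1.82 and 1.62 FPKM in CK libraries 1, 2 and 3. It was at 8.79, 6.78 and 7.50 FPKM in the day 1 libraries and at 8.49, 4.02 and 7.76 FPKM in the day 2 libraries. Here too the groups of treated and CK libraries did not overlap, and day 2 library 2 was the lowest of the treated ones. The means were 1.83 ± 0.213 FPKM in CK, 7.69 ± 1.02 at day 1 and 6.75 ± 2.40 at day 2 (SD, n = 3 in each). The fitted log2 fold change from CK was 2.21 (SE 0.26) at day 1 and 1.98 (SE 0.26) at day 2. Single treated libraries stood 2.20-fold (day 2 library 2) to 4.81-fold (day 1 library 1) above the mean of CK.

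**Figure D1:**
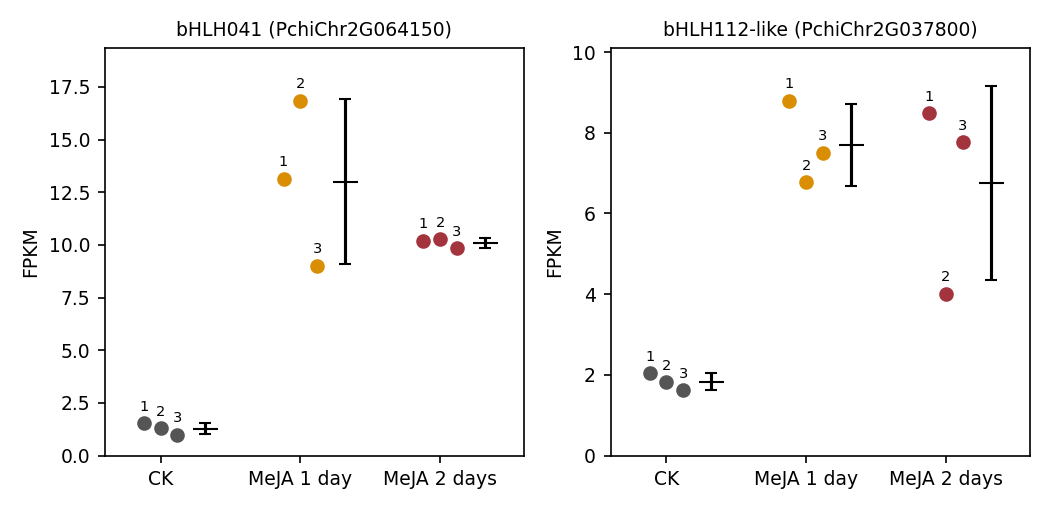
FPKM of bHLH041 (left) and bHLH112-like (right) in each library, numbered by its replicate, with the group mean and SD as a bar beside the points (n = 3). Every treated point lies above every CK point, and the widest groups are day 1 for bHLH041 (9.02 to 16.8 FPKM) and day 2 for bHLH112-like (4.02 to 8.49 FPKM).

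A part of the pattern that chose these genes, treated libraries above CK, is not rare. After a filter on low counts 22384 genes were kept. By counts scaled to library size, all 6 treated libraries lay above all 3 CK libraries for 2926 of them, or 13.1%. This share holds genes at any level in CK and with a rise of any size. Estimated counts behind the values ran from 110 to 180 in CK and 964 to 1835 in treated libraries for bHLH041, and from 237 to 321 and 571 to 1297 for bHLH112-like. The coefficient of variation over libraries was 30.1% for bHLH041 at day 1 and 35.5% for bHLH112-like at day 2.

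The choice asked for a steady rise in the libraries of both days, so the test between the days is not independent of it. Its results are given as values, and no conclusion is drawn from them. bHLH041 was at 0.759-fold of its day 1 level at day 2 (95% interval 0.478 to 1.20, edgeR quasi-likelihood test, adjusted p = 0.954). bHLH112-like was at 0.854-fold (95% interval 0.576 to 1.26, edgeR adjusted p = 0.964). Neither difference exceeded the spread between libraries. In order of level, CK lay below both treated days for each gene, as the choice asked, and the test did not separate days 1 and 2. No gene passed in this comparison by edgeR (0.00% higher and 0.00% lower of 22384). At an unadjusted p under 0.05 there were 949 genes (4.24%), and DESeq2 called 64 (0.283%) and limma 0 (0.00%). Without day 2 library 2 the log2 difference of bHLH112-like went from -0.23 to 0.00052, and without day 1 library 2 that of bHLH041 went from -0.40 to -0.08.

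Set against each other in FPKM, which divides by gene length, the genes changed places. By estimated counts, bHLH041 stayed below bHLH112-like in day 1 library 3 (964 and 1071). The same held in day 2 libraries 1 (1022 and 1136) and 3 (1160 and 1223), and bHLH041 was above in the remaining treated libraries. The FPKM of bHLH041 divided by that of bHLH112-like was 0.747, 0.723 and 0.618 in CK libraries 1, 2 and 3. In the day 1 libraries the ratio was 1.50, 2.48 and 1.20, and in the day 2 libraries 1.20, 2.55 and 1.27. It was under 1 in all CK libraries and above 1 in all treated libraries, and the libraries numbered 2 had the highest ratios at both days. The ratio is built from the values that chose the genes, so it was not tested. The centred values show the same split: day 1 library 2 stood from its group mean by 0.526 in log2 CPM (counts scaled to library size, log scale) for bHLH041 and by -0.0656 for bHLH112-like. For day 2 library 2 the deviations were 0.17 for bHLH041 and -0.527 for bHLH112-like.

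**Figure D2:**
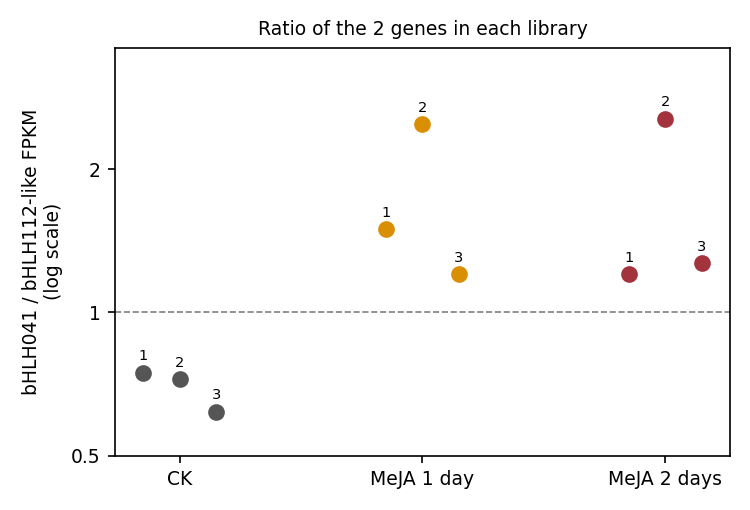
FPKM of bHLH041 divided by FPKM of bHLH112-like in each library (log axis, points numbered by replicate, dashed line at 1). CK libraries lie between 0.618 and 0.747 and treated libraries between 1.20 and 2.55, with library 2 highest at both days. Which side of 1 a library falls on depends on the gene lengths that FPKM divides by.

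Those libraries also had the lowest summed levels of leaf marker genes. The summed FPKM of 16 genes that mark leaf tissue (chlorophyll a-b binding proteins, the small subunit of Rubisco, photosystem subunits and oxygen-evolving enhancers) was 9159 to 11720 in CK. It was 6803, 850 and 3796 in libraries 1, 2 and 3 of day 1 and 3905, 646 and 3679 in those of day 2, and none of the 16 was at 0 throughout. At both days leaf markers were lowest in library 2, where bHLH041 was highest against bHLH112-like. The remaining libraries gave no single order. Day 1 library 1 had more leaf marker and a higher ratio (1.50) than library 3 (1.20). Day 2 library 1 had more leaf marker and a lower ratio (1.20) than library 3 (1.27). A pollen and seed list held 47 genes with pollen, seed storage, vicilin, legumin or late embryogenesis abundant in their description. It goes by name only, not by tissue. Its sum was 396 to 574 FPKM in CK and 935 to 3028 in treated libraries. That over 29 wood genes was 38.7 to 48.1 and 41.7 to 136, and the 1 root gene stayed at or under 0.211. The part of all these markers in the values of both bHLH genes was not tested. With both libraries numbered 2 left out, an alternative added after the data were seen, the log2 fold changes from CK were 3.20 at day 1 and 3.01 at day 2 for bHLH041 and 2.24 and 2.20 for bHLH112-like. Total estimated counts were 48893949 to 58703021 per library.

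Among the 28 genes with bHLH in their description, both genes moved up the order of levels. Factors of the family described by other names are left out of this order, such as MYC2a, at a mean of 34.7 FPKM at day 1. By mean FPKM, bHLH041 ranked 15 of the 28 bHLH genes in CK, 7 at day 1 and 8 at day 2. bHLH112-like ranked 13 in CK, 8 at day 1 and 9 at day 2. Of the FPKM summed over all 28 genes (179 in CK, 268 at day 1 and 300.1 at day 2), bHLH041 held 0.716% in CK, 4.85% at day 1 and 3.37% at day 2. bHLH112-like held 1.02%, 2.87% and 2.25%. Among all genes of the table, bHLH041 had a higher mean than 37.5% of genes in CK and 71.7% at day 1, and bHLH112-like than 41.7% and 61.8%.

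Most other bHLH genes did not pass the test. Of the 26, 24 were kept after the filter, and at day 1 2 of these rose (8.33%) and 0 fell, against 4.34% higher and 1.00% lower over all genes (edgeR adjusted p under 0.05). At day 2 3 rose (12.5%) and 0 fell, against 4.09% higher and 0.858% lower over all genes. At an unadjusted p under 0.05, in either direction, there were 6 of the 24 at day 1 (25%, beside 23.8% of all genes) and 9 at day 2 (37.5%, beside 24.7%). All of these were higher but for a bHLH140 gene (PchiChr8G245800), lower at day 2. DESeq2 called 6 at day 1 (25%, beside 16.6% of all genes) and 7 at day 2 (29.2%, beside 17.0%), again in either direction. The edgeR shares that rose rest on 2 and 3 genes. The median log2 fold change of the 24 was 0.07 at both days, beside 0.03 over all genes, and stayed so with the 1 gene at 0 in CK set to the bound that a floor of 3 counts in the whole group gives. In 5 of the 24 (20.8%, beside 13.1% of all genes) all treated libraries lay above all CK libraries. Both comparisons share the CK libraries.

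The 3 that passed at either day were bHLH66, bHLH62 and a bHLH118-like gene. bHLH66 (PchiChr7G203480), whose Arabidopsis namesake acts in root hair growth, was at 5.06, 3.89 and 2.81 FPKM in CK, 20.8, 24.7 and 19.4 at day 1 and 17.0, 36.1 and 28.1 at day 2. It rose at both days (log2 2.62, SE 0.37, edgeR adjusted p = 0.0110, and 2.94, SE 0.38, adjusted p = 0.00973), with all treated libraries above CK. Leaving out any CK library ended the day 1 call (edgeR adjusted p 0.05 to 0.0589), and leaving out CK library 1 ended the day 2 call (0.0504).

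bHLH62 (PchiChr5G154260) was at 0.155, 0.197 and 0 FPKM in CK, 10.8, 0.827 and 11.0 at day 1 and 15.4, 45.1 and 19.7 at day 2. Day 1 library 2 was the lowest treated library, still above all CK libraries, and the day 2 libraries were the highest. It rose at both days (edgeR adjusted p = 0.0381 and 0.0225), on 10, 12 and 0 counts in CK, so the size of its fold is uncertain. The day 1 call was lost in 12 of 18 alternatives, among them leaving out any library except day 1 library 2 (edgeR adjusted p 0.0510 to 0.138). Among single libraries left out, the day 2 call was lost without any CK library or day 2 library 2 (edgeR adjusted p 0.0573 to 0.0975).

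The bHLH118-like gene PchiChr7G199950 was at 0.368, 0.471 and 0.123 FPKM in CK, 2.02, 2.52 and 1.34 at day 1 and 2.11, 8.39 and 8.28 at day 2. It passed at day 2 (log2 4.42, SE 0.75, edgeR adjusted p = 0.0198) and not at day 1 (adjusted p = 0.0617), and its days did not differ by the test between them (edgeR adjusted p = 0.954). The day 2 call was lost without any CK library or day 2 library 2 or 3 (edgeR adjusted p 0.0512 to 0.0887). A second gene of this name (PchiChr7G199960) lies beside it, so reads could have been split between the copies.

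The most abundant other bHLH genes had values closer to CK. bHLH61 (PchiChr5G145220) had the highest mean over all libraries, 92.4 FPKM, with 57.0 ± 4.96 in CK, 106 ± 34.3 at day 1 and 114 ± 35.2 at day 2 (SD, n = 3, edgeR adjusted p = 0.102 and 0.0794). bHLH30-like (PchiChr12G324080) was at 27.1 ± 5.84, 20.0 ± 1.95 and 20.3 ± 2.59 FPKM and bHLH78 (PchiChr3G079560) at 22.0 ± 1.28, 19.6 ± 3.08 and 21.2 ± 5.46 FPKM in CK, day 1 and day 2. Neither passed at either day (edgeR adjusted p 0.396 to 0.910). At day 1 the level of bHLH041 was thus 13.0 FPKM beside 106 FPKM for the most abundant bHLH gene.

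**Figure D3:**
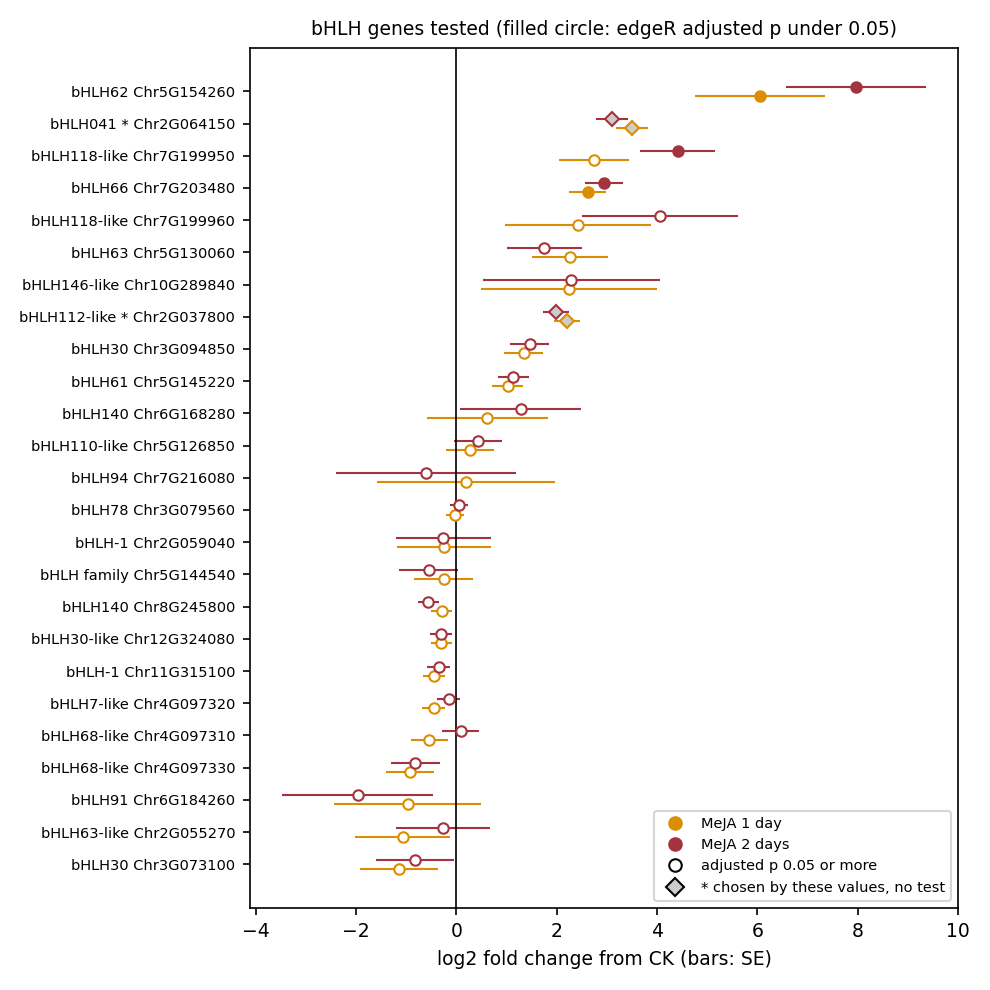
Log2 fold change from CK at day 1 and day 2 for the bHLH genes tested with a count above 0 in CK, ordered by the day 1 value (bars: SE, filled circles: edgeR adjusted p under 0.05, grey diamonds: the 2 genes chosen by these values and not tested). bHLH041 stands at 3.50 and 3.10 and bHLH112-like at 2.21 and 1.98, and the median of all 24 other genes tested, with the 1 not drawn, is 0.07 at both days.

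Genes of jasmonate signalling gave a mixed picture. The list held 16 genes, picked by description alone: TIFY or JAZ, MYC2, coronatine-insensitive, ninja-family and topless names. PchiChr11G309550 (219832833 to 219834794) and PchiChr11G309560 (219832890 to 219834805) overlap on the same strand, so these entries are not separate loci. Of the 16, all kept after the filter, 2 rose at day 1 (12.5%, beside 4.34% of all genes) and 3 at day 2 (18.8%, beside 4.09%). By edgeR 0 fell at either day. At an unadjusted p under 0.05 there were 7 at each day in either direction (43.8%, beside 23.8% of all genes at day 1 and 24.7% at day 2). Among these, JAMYC2 was lower at day 1, a coronatine-insensitive homolog (PchiChr1G008930) and a TIFY 4B-like gene (PchiChr11G308970) were lower at day 2, and the rest were higher. DESeq2 called 6 at day 1 and 5 at day 2 in either direction (37.5% and 31.2%, beside 16.6% and 17.0%). The list had a median log2 fold change of 0.41 at day 1 and 0.10 at day 2, where all genes had 0.03. These medians did not change with the 1 gene at 0 in CK set to its bound. MYC2a (PchiChr2G047860), the bHLH factor that turns on jasmonate targets, was at 7.26, 9.90 and 5.19 FPKM in CK, 28.9, 39.3 and 36.1 at day 1 and 40.1, 41.1 and 40.5 at day 2. It rose at both days (log2 2.37, SE 0.28, edgeR adjusted p = 0.00718, and 2.57, SE 0.28, adjusted p = 0.00758). Leaving out CK library 1 ended both calls (edgeR adjusted p = 0.0524 and 0.0504). Its description does not hold the word bHLH, so it is not among the 28.

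TIFY 9 (PchiChr3G086840), of the JAZ repressors, was at 7.67, 9.28 and 1.87 FPKM in CK, 95.4, 728 and 191 at day 1 and 148, 626 and 303 at day 2, with the highest mean of the pathway list over all libraries, though not in CK. It rose at both days (edgeR adjusted p = 0.0283 and 0.0281) and lost each call in 5 of 18 alternatives. Those were leaving out any CK library at both days, day 2 library 3 at both, day 2 library 2 at day 2, and fitting only the groups compared at day 1 (edgeR adjusted p 0.0540 to 0.116). Further genes of this name, PchiChr10G282800 and PchiChr2G055460 (TIFY 9-like), did not pass at either day (edgeR adjusted p 0.0646 to 0.144). Both were highest in day 2 library 2, at 15.1 and 160 FPKM. A group V JAZ gene (PchiChr12G333780) went from 57.2 ± 2.00 FPKM in CK to 136 ± 24.6 at day 2 (SD, n = 3, log2 1.39, SE 0.26, edgeR adjusted p = 0.0277), a call lost without any CK library or day 2 library 2 or 3 (0.0639 to 0.120). JAMYC2 (PchiChr6G179150), at 12.9 ± 0.209, 8.29 ± 2.25 and 11.6 ± 1.24 FPKM in CK, day 1 and day 2, did not pass (edgeR adjusted p = 0.204 and 0.974).

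A further 3 genes are described as helix-loop-helix protein 1A, after a match to Pinus taeda, and were picked out here with their values already known. PchiChr2G058140 rose from 7.85 ± 0.716 FPKM in CK to 35.7 ± 17.0 at day 1 and 30.8 ± 11.8 at day 2 (SD, n = 3, edgeR adjusted p = 0.0191 and 0.0264). Leaving out any CK library ended its calls, and at day 2 so did leaving out day 2 library 1 or 3 (edgeR adjusted p 0.0643 to 0.110). PchiChr5G132250 was at 24.2 ± 2.59, 44.2 ± 9.71 and 30.6 ± 0.0827 FPKM and passed at day 1 (edgeR adjusted p = 0.0452), a call lost in 12 of 18 alternatives, among them leaving out any library except day 1 library 3. PchiChr6G179900 did not pass (edgeR adjusted p = 0.486 and 0.841).

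The genes nearest in pattern were different for bHLH041 and bHLH112-like. Likeness was the root mean square difference between log2 CPM profiles over the 9 libraries, each centred on its own mean, among 22383 genes. For bHLH041 the 5 nearest genes differed by 0.231 to 0.288, where the median gene differed by 1.67. They were 4 genes described only as unknown, led by PchiChr4G121910, and a peroxidase (PchiChr5G147320), an enzyme class that uses hydrogen peroxide in the cell wall. The peroxidase was at 4.45, 3.98 and 2.94 FPKM in CK, 41.7, 75.4 and 45.0 at day 1 and 46.3, 36.9 and 38.6 at day 2.

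For bHLH112-like the 5 nearest differed by 0.182 to 0.244, where the median gene differed by 1.17. They held a kinase family protein (PchiChr3G072160), a calcium-dependent protein kinase 10 (PchiChr2G047470), of a class that relays calcium signals, a WRKY factor (PchiChr9G253780), of a family that regulates defence, and 2 genes described only as unknown. The calcium-dependent kinase was at 23.6, 20.5 and 19.8 FPKM in CK, 93.8, 96.2 and 110 at day 1 and 95.7, 57.9 and 73.5 at day 2, with its lowest treated value in day 2 library 2, as in bHLH112-like. The 2 bHLH genes differed from each other by 0.685, which placed bHLH112-like at rank 316 for bHLH041 and bHLH041 at rank 756 for bHLH112-like. The lists of nearest genes depend on the libraries and the scale. Without both libraries numbered 2, 1 of 5 was shared for bHLH041 and 0 of 5 for bHLH112-like, and on log2(FPKM + 1) 1 of 5 was shared for each.

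**Figure D4:**
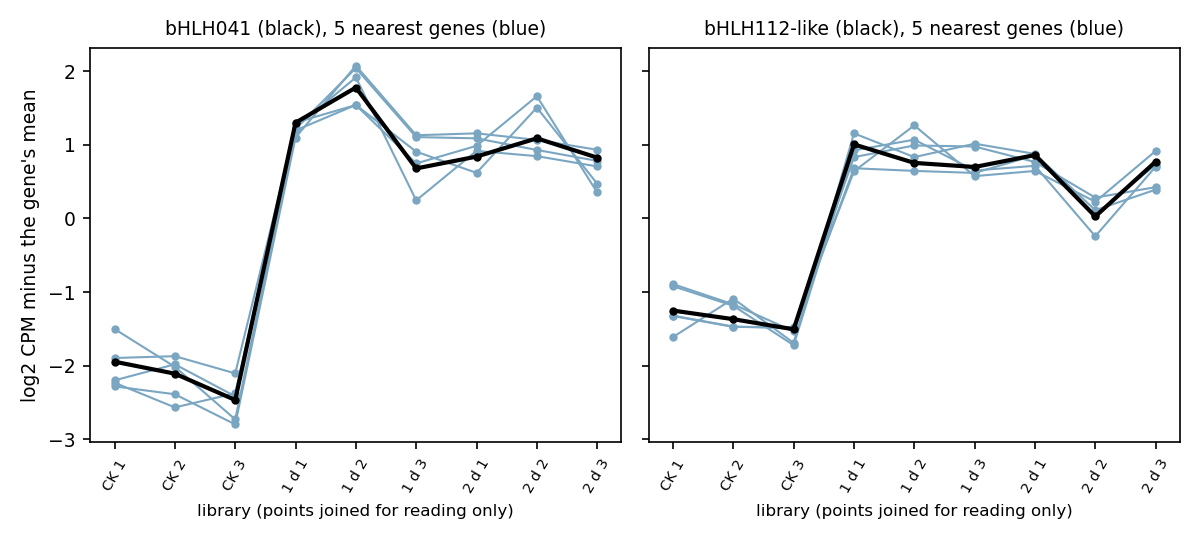
Centred log2 CPM of bHLH041 (left) and bHLH112-like (right) in black with their 5 nearest genes in blue, by library. The nearest genes were chosen for their likeness, differing by 0.231 to 0.288 and by 0.182 to 0.244, and the dip in day 2 library 2 is seen for bHLH112-like and its nearest genes.

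Both genes lie far from the next gene of the table, at 322180 bases for bHLH041 and 393376 bases for bHLH112-like. The 2 neighbours on each side of bHLH041 were 2 genes that failed the filter and 2 that did not pass at either day (PchiChr2G064130 and PchiChr2G064160, described only as unknown, edgeR adjusted p 0.314 to 0.655). PchiChr2G064130 was at 18.1 to 25.9 FPKM and PchiChr2G064160 at 67.5 to 87.6 FPKM over all libraries, with treated and CK values overlapping. Of the 4 neighbours of bHLH112-like, 1 rose at both days, where 4.34% of all genes rose at day 1 and 4.09% at day 2. This was a gene described as myosin-11 (PchiChr2G037780), at a distance of 703029 bases. It was at 1.65, 1.25 and 1.33 FPKM in CK, 3.21, 4.47 and 2.78 at day 1 and 2.72, 3.76 and 5.06 at day 2 (edgeR adjusted p = 0.0441 and 0.0370). Its day 1 call was lost in 15 of 18 alternatives, among them leaving out any of the 9 libraries, and its day 2 call in 9, among them leaving out any CK library, day 1 library 1 or 3 or day 2 library 2 or 3 (edgeR adjusted p 0.05 to 0.156). The other 3 did not pass (edgeR adjusted p 0.141 to 0.978).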

How the data were processed

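RNA of 9 leaf libraries was extracted with TRIzol and made into libraries with the VAHTS Universal V6 method, as the labels' protocols say. The submitters' processing notes name fastp, HISAT2 and HTSeq, but not given in the sources used here are the version of each, the genome build, the annotation and any strand setting. For all libraries the authors deposited 1 table with an estimated count and an FPKM per gene and library. In 100% of 150 low values the count exceeded a rescaled FPKM by 0 to 1 (tolerance 0.05), so the deposited estimated counts had been rounded up and were used as they stood. Groups came from the treatment labels. Positions are those of the authors' table, whose number after the chromosome is read as the name of a block. Reads of near-identical or antisense genes could not be separated.

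All genes were fitted together with edgeR 4.0.16 under R 4.3.3 (two-sided quasi-likelihood test, TMM scaling, filterByExpr with a minimum count of 10, 22384 genes kept, no covariate, Benjamini-Hochberg adjustment over all genes kept, threshold 0.05). Log2 CPM used a prior count of 2. Levels are FPKM. Alternatives were DESeq2 1.42.0, limma 3.58.1 on log2(FPKM + 1) or log2(FPKM + 0.1) (all genes, or those reaching 1 FPKM in at least 3 libraries), other scaling and filters, the compared groups only, the replicate number as a term, and each library left out. The fits were tested on simulated data.

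The genes and lists were chosen with earlier results of these data known. Named genes were both chosen genes, other bHLH and jasmonate signalling genes called in any comparison, the 3 most abundant other bHLH genes and the most abundant of the jasmonate list, the 5 nearest in pattern and the 2 nearest by position on each side. JAMYC2, the bHLH118-like copy and the helix-loop-helix genes were added after their values were seen.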

Additional observations from a re-analysis of the deposited data

How the results depend on the processing

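As the choice of the genes fixed in advance, the log2 fold changes of bHLH041 and bHLH112-like from CK kept their sign under all 18 alternatives. They moved by more than the spread between libraries in limma fits on log2(FPKM + 1), with or without the filter, to 2.58 at day 1 and 2.29 at day 2 for bHLH041 and 1.62 and 1.40 for bHLH112-like, since the added 1 is large beside their CK level, and to 2.01 at day 1 for bHLH112-like with 0.1 added. Day 2 against day 1 was called for neither gene under any alternative (adjusted p 0.716 to 1). With each library left out that log2 difference ran from -0.39 to 0.00052 for bHLH112-like. The choice had used the values of both days, so no conclusion is drawn from this comparison.

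Counts of called genes depended on the fit, with main values of 1196 at day 1, 1107 at day 2 and 0 between the days. They were 3751, 3932 and 64 with DESeq2, 534 and 1945 with the compared groups only, and 1803 and 2430 without both treated libraries numbered 2. With each library left out they ran from 134 (without CK library 1) to 1193 at day 1 and from 48 (without CK library 1) to 2893 (without day 1 library 2) at day 2. The counts of other bHLH genes, 2 at day 1 and 3 at day 2, were 6 and 7 with DESeq2, 1 and 5 with the compared groups only, 4 and 5 without both treated libraries numbered 2, and 1 at day 1 in limma on log2(FPKM + 1) with or without the filter. With each library left out they ran from 0 to 4 and from 0 to 6. The cause was not tested.

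The replicate block gave 747 called genes at day 1 and 865 at day 2, and 1 and 2 other bHLH genes. With it bHLH62 was not called (adjusted p 0.0858 at day 1 and 0.0518 at day 2). Deviations of same-numbered libraries correlated at -0.12 to 0.31 over the 3 comparisons. In these, 0, 4 and 4 of 6 libraries correlated best with their own number. In log2 CPM, day 1 and day 2 libraries numbered 1 correlated at 0.9585, those numbered 3 at 0.9595 and those numbered 2 at 0.7947. Within a treated day no pair exceeded 0.9295. The labels do not say whether a number marks a shared plant or batch, and this was not tested. The main fit did not pair the samples.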
